A study of Rattus norvegicus with 12 samples.

Results

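The cell cycle and mitosis genes described here are a fixed list of 50 symbols for genes that work in DNA replication, cell cycle control and mitosis, and they were followed in the colon of male Wistar rats. Of the 50 symbols, 46 had at least 1 probe under that gene name, with 58 probes in all out of 30367 probes and 26514 gene names on the array. The symbols Mki67, Cdc2, Ect2 and Ncapg were the 4 without a probe of that name. The probes were picked by gene name alone. Where a gene had 2 probes, as 12 genes did, the probe with the higher mean level stands for the gene.

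RNA from the colon of 1 rat was hybridised to each of 12 one-colour Agilent arrays, with 4 rats in each of 3 groups. Group C rats (C1 to C4) were reared without separation and given placebo (saline) by gavage. Group M rats (M5 to M8) underwent neonatal maternal separation (NMS), in which pups are taken from the mother for 180 min a day, here from day 2 to day 14 of life, and were given the same placebo. Group D rats (D9 to D12) underwent the same NMS and were given VSL#3, a mixture of live probiotic bacteria. Gavage ran from day 3 to day 60 in every group, and every rat also underwent colorectal distension (CRD), a balloon test of visceral sensitivity, before the colon was taken at day 60, so the control group carried the distension and the gavage too. NMS is a model of early life stress and of irritable bowel syndrome, and whole colon mixes epithelium, muscle, nerve and immune cells. In this bulk tissue fewer cells of a type and less RNA per cell cannot be told apart. The array of rat D12 was not among the 11 that the methods of the study analyse, and the tests below used those 11. The value of D12 is given for each gene whose levels are listed rat by rat, and fits with D12 are named as such.

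Dividing cells express these genes in waves. Replication genes, which unwind DNA, supply nucleotides and hold the polymerase on the template, are switched on by E2F factors as a cell enters S phase, and a later set driven by B-Myb, FoxM1 and their partners prepares the spindle, the kinetochores and the kinases of mitosis. In the colon the dividing cells are found mainly in the lower crypt, and in the lymphoid follicles of the mucosa B cells divide in germinal centres.

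The levels rest on 60-base probes, and the 6 below are shown because they read an early gene, 3 central mitotic genes and 2 of the genes that behaved differently from the rest. For Top2a the second, dimmer probe is shown, and its values are given beside those of the brighter one. Positions are on the rat build rn4 of the array design, and the letters are all in lower case because no base is singled out.
Mcm2, minus strand, chr4:122978031-122978090: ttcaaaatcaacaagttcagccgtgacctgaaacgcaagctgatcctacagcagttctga
Ccnb1, minus strand, chr2:31574809-31575048: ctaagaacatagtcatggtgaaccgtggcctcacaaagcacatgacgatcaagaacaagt
Cdk1, plus strand, chr20:20043755-20043814: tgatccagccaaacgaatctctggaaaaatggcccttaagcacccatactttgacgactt
Top2a, second probe, minus strand, chr10:87774762-87774821: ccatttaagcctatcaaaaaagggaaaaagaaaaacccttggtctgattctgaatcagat
Kif2c, minus strand, chr5:137474203-137474262: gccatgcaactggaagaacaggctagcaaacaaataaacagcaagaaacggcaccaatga
Tyms, minus strand, chr9:112605733-112605792: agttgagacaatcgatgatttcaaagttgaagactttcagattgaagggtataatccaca

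Promoters were searched for the letters that are usual at such genes. RefSeq promoters (build GRCr8) were at hand for 35 of the 46 genes, in 36 entries, and the 250 bases before the annotated start were read on both strands. The words were CCAAT, the box bound by NF-Y; TTTGAA or TTCGAA, the core of the cell cycle genes homology region (CHR); and TTTGGCGC, TTTCCCGC, TTTCGCGC or TTTGCCGC for E2F. CCAAT was present in 61.1% of the 36 entries, against 34.0% of the 33469 promoters of the same length in the whole table. A CHR word was present in 33.3% against 17.4%, and an E2F word in 16.7% against 1.7%. Within the list the E2F words were found in 5 of 11 promoters of replication genes and in 1 of the other 25, while CCAAT was found in 7 of those 11 and in 15 of the 25. None of these words was present in 11 of the 36. These shares were not tested, a match is not a site in use, and base composition differed too, since G and C made up 57.9% of the bases before these genes and 52.2% of all.

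Printed here are 1 promoter with CCAAT alone, 1 with all 3 kinds of word and 1 with the CHR and E2F words, each 250 bases, 5′ to 3′ on the strand of the gene, with every matched word in capitals.
Ccnb1, minus strand, chr2:33655226-33655475: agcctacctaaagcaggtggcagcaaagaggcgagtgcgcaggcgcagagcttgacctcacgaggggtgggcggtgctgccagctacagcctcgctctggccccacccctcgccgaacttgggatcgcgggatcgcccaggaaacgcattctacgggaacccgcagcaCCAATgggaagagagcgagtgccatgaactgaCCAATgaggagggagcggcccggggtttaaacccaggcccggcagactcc
Cdk1, plus strand, chr20:19265043-19265292: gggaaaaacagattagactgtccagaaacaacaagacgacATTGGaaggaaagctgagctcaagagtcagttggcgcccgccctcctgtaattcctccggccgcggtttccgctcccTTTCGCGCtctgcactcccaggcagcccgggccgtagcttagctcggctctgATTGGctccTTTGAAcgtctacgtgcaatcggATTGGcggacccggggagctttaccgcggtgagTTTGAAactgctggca
Mcm2, minus strand, chr4:122918095-122918344: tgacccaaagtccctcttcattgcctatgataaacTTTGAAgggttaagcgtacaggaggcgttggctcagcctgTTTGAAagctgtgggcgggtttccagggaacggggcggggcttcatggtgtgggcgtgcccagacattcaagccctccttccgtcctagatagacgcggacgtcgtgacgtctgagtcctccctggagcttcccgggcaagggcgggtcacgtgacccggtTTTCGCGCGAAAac
In Mcm2 the last capital stretch holds an E2F word on each strand, and the 2 words overlap.

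All levels below are log2 values relative to the 75th percentile of the signals on the same array, so that 1 unit is 2-fold. On every array 75.5% to 77.5% of spots were well above background and no spot was saturated. The arrays with the highest shares were M5 (77.5%), M7 (77.2%), D12 (77.2%) and M8 (77.05%), the same 4 rats that were high in the cell cycle genes below, and the part of this in the result was not tested. Group C and Group M arrays shared 1 slide, in different rows, and all Group D arrays were on a second slide, so for Group D slide and treatment cannot be told apart. Of the 46 genes, 45 were well above background on all 11 arrays. The exception was Ccne2.

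The cell cycle genes differed between rats of 1 group as well as between groups. Averaged over the 46 genes, the level was -3.33 in C1, -2.70 in C2, -3.32 in C3 and -2.59 in C4. In Group M it was -1.19, -3.24, -1.95 and -1.30 in M5 to M8, and in Group D it was -3.15, -3.07 and -3.31 in D9 to D11 and -1.70 in D12. Thus 3 rats of Group M and the untested rat D12 lay above every control, and M6 lay inside the range of the controls. Gene by gene, M5 exceeded all Group C rats in 44 of the 46 genes, M8 in 44, M7 in 38 and M6 in 0, and M6 was the lowest rat of Group M in 44. D12 exceeded all Group C rats in 41 genes, and D9, D10 and D11 did so in 1, 0 and 0. Levels at least 2-fold above the Group C mean were reached by 41 genes in M5, 23 in M7, 40 in M8 and 32 in D12, and by none in M6.

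**Figure D1:**
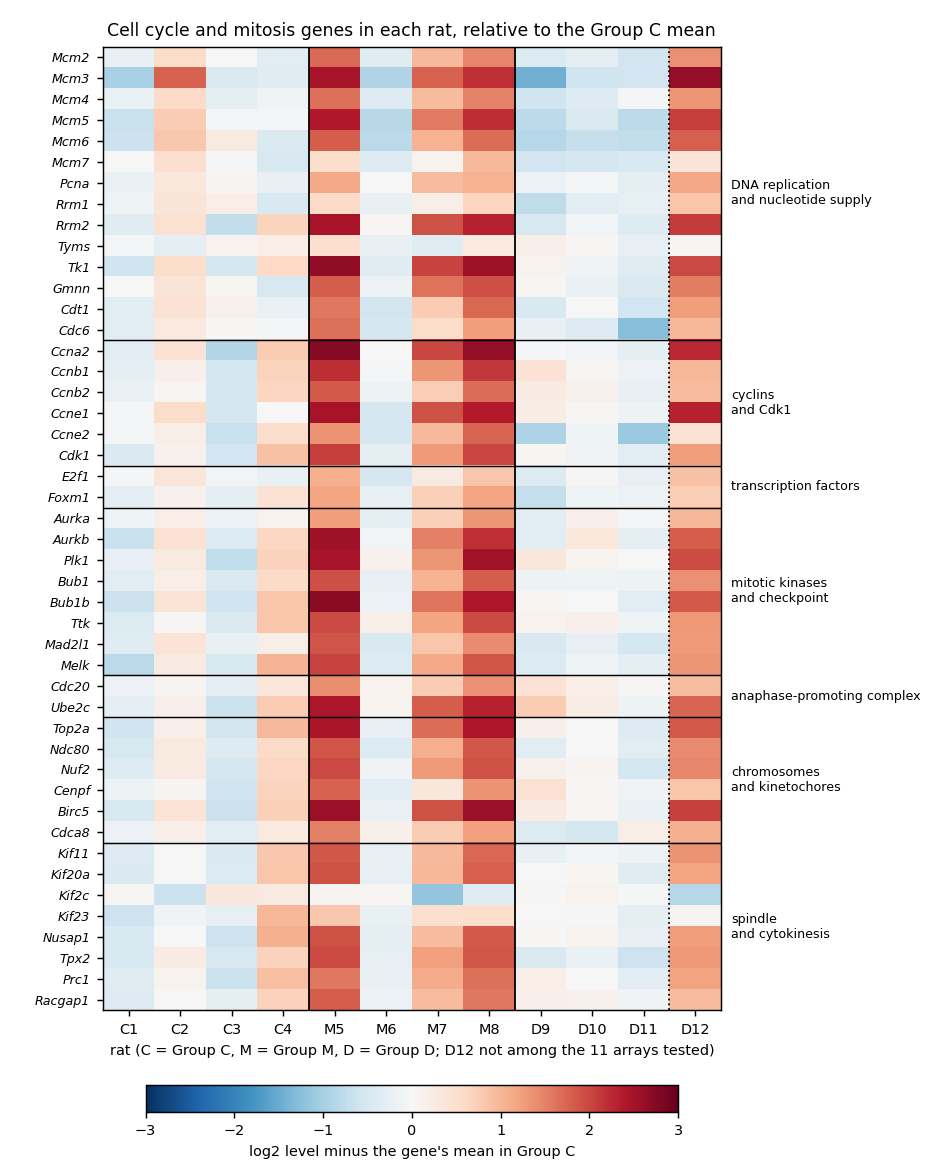
Heat map of the 46 genes (rows, by role) in the 12 rats (columns), coloured by the log2 level minus the mean of the gene in Group C. Columns M5, M7, M8 and D12 are red in nearly every row, M6 and D9 to D11 are pale, and the rows Kif2c, Tyms and Kif23 depart from the pattern. In Kif23 the control C4 is the highest rat.

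The comparison of Group M with Group C asks how NMS altered the colon. With limma, and p-values adjusted by Benjamini and Hochberg over the whole array, 0 of the 58 probes passed an adjusted p of 0.05, at which 0.204% of all probes passed. At an unadjusted limma p of 0.05, 34 of the 58 probes were higher in Group M and 0 lower, against 10% of all probes higher and 12.6% lower. By gene these were 30 of 46, and the median difference over the 46 genes was 1.09, against -0.01 over all gene names. The criterion that the methods of the study state (analysis of variance and Tukey's test, unadjusted, with a change of at least 2-fold) was passed by 7 probes upward and 0 downward, against 1.37% and 0.935% of all probes, and the 7 probes belonged to Rrm2, Ccna2, Plk1, Ttk, Ube2c and Mcm4. The groups did not overlap in 1 probe upward, the second Mcm4 probe, and in 0 downward, against 4.18% and 5.04% of all probes, a share below that of the array. Leaving out M6 gave 47 probes past the adjusted p, 47 past the criterion of the methods and 51 at the unadjusted p, with a median difference of 1.54. In that fit the calls over the whole array rose as well, to 4914, 1772 and 9612 of the 30367 probes, from 62, 701 and 6880. Without C4 the unadjusted count was 36 and the criterion was still passed by 7 probes. Leaving out other rats mostly lowered the counts: the unadjusted count was 19 without C1, 16 without C3, 15 without M5 and 15 without M8, and the criterion was passed by 1 probe without C1, C3, M5, M7 or M8 and by 2 without C2, D9, D10 or D11. Without C2 the unadjusted count was 34 (33 higher and 1 lower in Group M) and the adjusted count 1.

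The comparison of Group D with Group M asks what VSL#3 altered in separated rats, and it shares Group M with the comparison above, so it is not an independent result. No probe of the 58 passed the adjusted limma p, which 0.171% of all probes passed. At the unadjusted p, 45 of the 58 probes were lower in Group D and 0 higher, against 10.3% and 11.3% of all probes. By gene these were 39 of 46, with a median difference of -1.32 over the 46 genes and 0.01 over all gene names. The criterion of the methods was passed by 7 probes downward and 0 upward, against 1.57% and 1.09%, and the 7 belonged to Mcm2, Mcm4, Rrm2, Gmnn, Cdca8 and Tpx2. Groups D and M did not overlap in 8 probes, all lower in Group D, and in 0 higher, against 7.38% and 8.46%. These 8 were the probes of Mcm7, Pcna, Rrm1, Ccna2 and Ttk, both of Rrm2 and the second of Mcm4, with D12 not counted. With D12 in the fit the unadjusted count was 4, the criterion was passed by 0 probes and the median was -0.92. Without M6 the adjusted limma count was 51, the criterion was passed by 48 and the unadjusted count was 53, while over the whole array the counts were 4504, 2026 and 9193 probes, against 52, 807 and 6553 with M6 in the fit. Without M5, M8, D11 or D9 the unadjusted count was 21, 22, 23 or 28, and the criterion was passed by 4 probes without C1, C2 or C3, by 2 without M7, by 1 without M8, D9, D10 or D11 and by 0 without M5.

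Between Group D and Group C no probe of the 58 passed the adjusted limma p, which 0.00659% of all probes passed, and 0 were higher and 0 lower at the unadjusted p, at which 2.98% of all probes were higher and 2.98% lower. The criterion of the methods was passed by 0 of the 58 as well, against 0.198% of all probes higher and 0.171% lower. The median over the 46 genes was -0.13, against -0.01 over all gene names. It was 0.22 with D12 in the fit. By role, the medians of Group D minus Group C ran from -0.38 for replication genes to 0.25 for the pair that works with the anaphase-promoting complex.

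**Figure D2:**
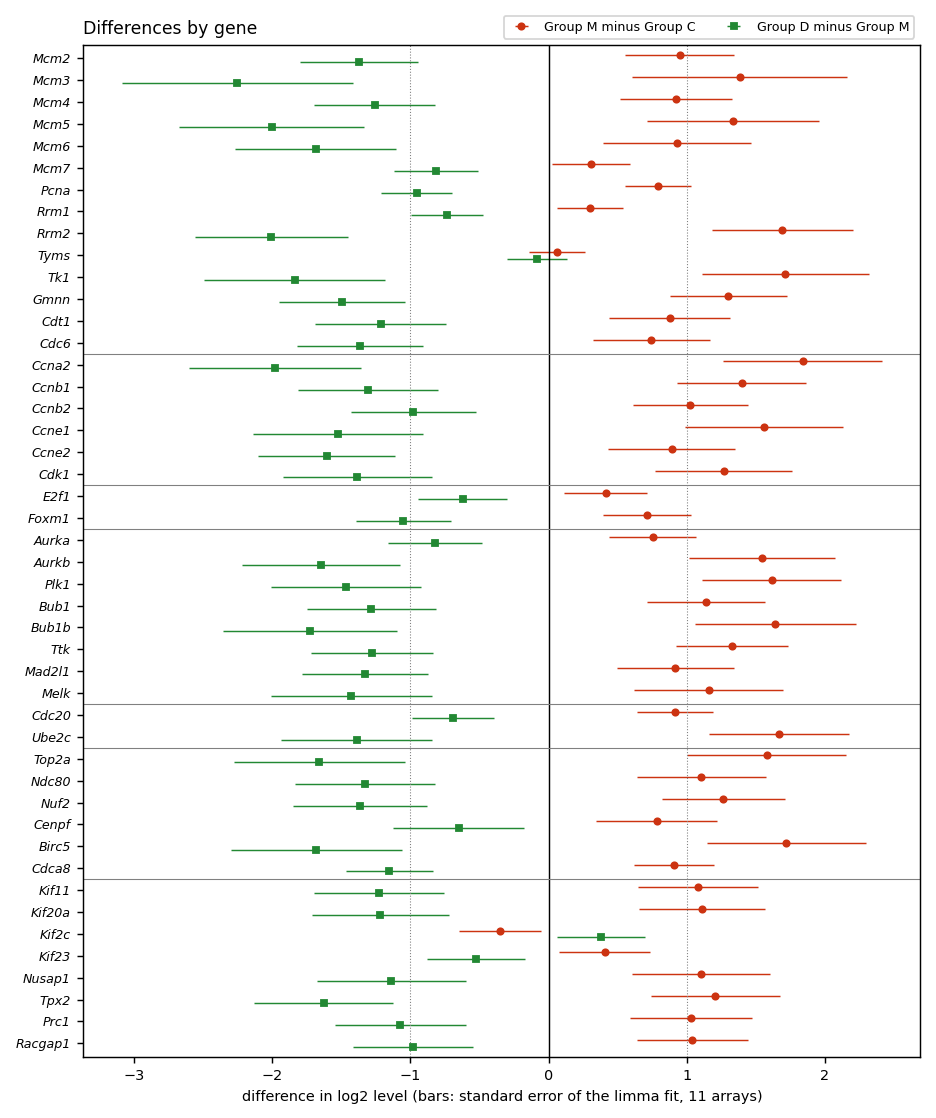
Difference in log2 level for each of the 46 genes between Group M and Group C (circles) and between Group D and Group M (squares), with the standard error of the limma fit over 11 arrays; the same Group M rats enter both. Every gene except Kif2c has its circle at or right of zero and its square at or left of it, and the error bars are widest for Mcm3. Tyms lies next to zero, and its sign turned when single rats were left out.

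The 14 replication genes had a median difference of 0.93 between Group M and Group C, with 6 at the unadjusted p, and of -1.37 between Group D and Group M, with 13. Mcm2, a subunit of the replicative helicase, measured -2.38, -1.59, -2.15 and -2.47 in C1 to C4, -0.46, -2.51, -1.17 and -0.67 in M5 to M8, -2.57, -2.43 and -2.72 in D9 to D11 and -0.78 in D12. M5, M7 and M8 lay above every control and M6 below all of them, so Groups C and M overlapped. The difference was 0.95 ± 0.39 (SE) between Group M and Group C (adjusted p = 0.190) and -1.37 ± 0.42 between Group D and Group M (adjusted p = 0.125).

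The other helicase subunits differed in size. Without D12, Mcm3 showed the largest difference of the list between Group D and Group M, -2.25 ± 0.84 (adjusted p = 0.164), but its control rats themselves ran from -1.13 in C1 to 1.60 in C2. D12, at 2.48, was the highest of the 12 rats for Mcm3, and with D12 in the fit the difference was -1.38, smaller than that of Rrm2 (-1.40). Its second probe gave -2.12. Mcm5 and Mcm6 were lower in Group D than in Group M by 2.00 and 1.69, and Mcm7 by 0.82. Mcm4, on its brighter probe, was higher by 0.92 in Group M than in Group C, and its second probe, well above background on 9 of the 12 arrays, gave 1.88. Only that dimmer probe passed the criterion of the methods for Mcm4, in both comparisons.

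Pcna, the sliding clamp that holds DNA polymerase, measured 0.06, 0.58, 0.34 and 0.03 in Group C, 1.39, 0.26, 1.21 and 1.30 in Group M, 0.08, 0.22 and -0.05 in D9 to D11 and 1.42 in D12. All of Group M lay above D9 to D11, M6 by a small margin, and D12 was the highest of the 12 rats. The differences were 0.79 ± 0.24 (adjusted p = 0.118) and -0.95 ± 0.26 (adjusted p = 0.101).

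Rrm2, the small subunit of ribonucleotide reductase, which makes deoxynucleotides, measured -0.33, 0.49, -0.70 and 0.72 in Group C and 2.53, 0.10, 1.95 and 2.36 in Group M. It measured -0.44, -0.03 and -0.34 in D9 to D11 and 2.15 in D12. Both probes of the gene passed the criterion of the methods in both comparisons, the only gene of the list of which that was true, and the brighter one was 3.23-fold higher in Group M than in Group C (adjusted p = 0.118) and 4.02-fold lower in Group D than in Group M (adjusted p = 0.105). Rrm1, the large subunit of the same enzyme, differed by only 0.30 ± 0.24 between Group M and Group C and by -0.74 ± 0.26 between Group D and Group M.

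Tyms, thymidylate synthase, had the smallest differences of the replication genes. It measured -2.98, -3.23, -2.83 and -2.75 in Group C, -2.44, -3.16, -3.30 and -2.65 in Group M, -2.80, -2.90 and -3.20 in D9 to D11 and -2.88 in D12. Its differences were 0.06 ± 0.20 and -0.08 ± 0.22, both smaller than their errors, and the sign of each turned when single rats were left out. Tk1, thymidine kinase, which makes the same nucleotide by salvage, differed by 1.71 ± 0.61 and -1.84 ± 0.66.

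Gmnn, or geminin, which binds Cdt1 and keeps origins from being licensed again, measured -3.28, -2.91, -3.25 and -3.78 in Group C, -1.49, -3.49, -1.68 and -1.37 in Group M, -3.26, -3.51 and -3.73 in D9 to D11 and -1.78 in D12. M6 stood alone below the other rats of its group. Gmnn differed by 1.30 ± 0.42 between Group M and Group C (adjusted p = 0.129) and by -1.49 ± 0.45 between Group D and Group M (adjusted p = 0.123). The loading factors Cdt1 and Cdc6 differed by 0.88 and 0.74 in the former comparison and by -1.21 and -1.36 in the latter.

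**Figure D3:**
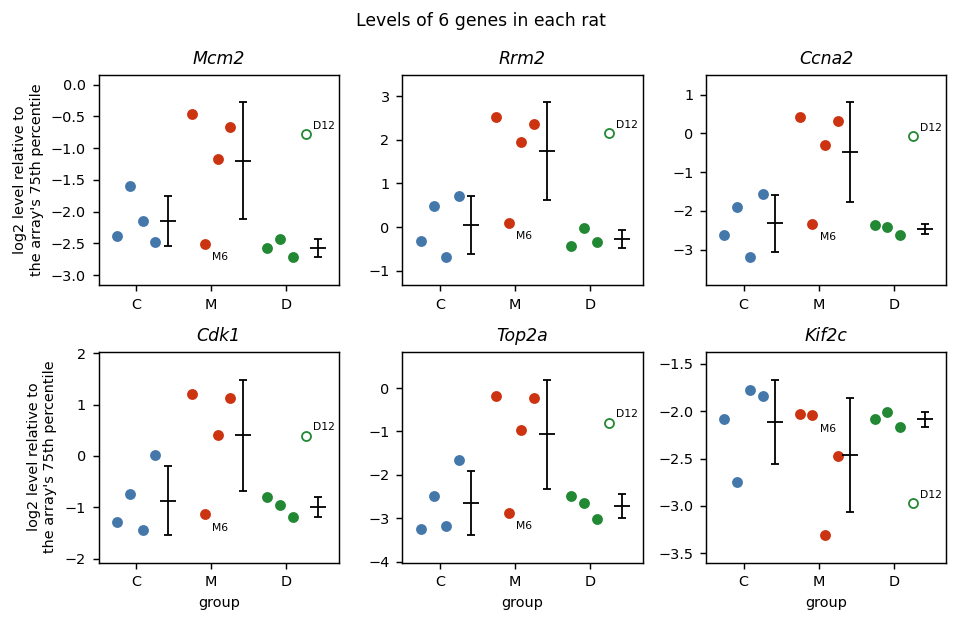
Log2 level of 6 genes in each rat relative to the 75th percentile of its array, with the mean and SD of each group beside its points (Group D without D12, the open circle). In Mcm2, Rrm2, Ccna2, Cdk1 and Top2a the points M5, M7, M8 and D12 lie above all controls, and in Kif2c they do not.

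Among cyclins and Cdk1, the kinase subunit that drives mitosis, 5 of 6 genes were higher in Group M at the unadjusted p and 5 of 6 lower in Group D than in Group M, with medians of 1.33 and -1.45. Ccna2, cyclin A, had the largest difference of the list between Group M and Group C. It measured -2.63, -1.89, -3.20 and -1.56 in Group C, 0.42, -2.34, -0.31 and 0.31 in Group M, -2.36, -2.41 and -2.62 in D9 to D11 and -0.07 in D12. Group M was 3.58-fold above Group C (adjusted p = 0.123) and Group D 3.95-fold below Group M (adjusted p = 0.127), and the second probe gave log2 differences of 1.81 and -1.95.

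Ccnb1, cyclin B1, measured -3.37, -2.95, -3.62 and -2.43 in Group C, -0.88, -3.16, -1.78 and -0.98 in Group M, -2.67, -3.07 and -3.28 in D9 to D11 and -2.10 in D12. D12 lay above the controls here too, though by less than it did in cyclin A. Ccnb1 differed by 1.40 ± 0.47 (adjusted p = 0.134) and -1.31 ± 0.51 (adjusted p = 0.177).

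Cdk1 measured -1.29, -0.75, -1.45 and 0.02 in Group C, 1.20, -1.14, 0.41 and 1.13 in Group M, -0.81, -0.96 and -1.19 in D9 to D11 and 0.39 in D12. The control C4 lay well above the other controls and not far below M7. The differences were 1.27 ± 0.50 (adjusted p = 0.172) and -1.38 ± 0.54 (adjusted p = 0.178).

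The E cyclins act at the entry into S phase. Ccne1 differed by 1.56 ± 0.57 and -1.52 ± 0.62. Ccne2 was not well above background in any of D9 to D11 and was so in 3 of the 4 Group M rats. D12, at -6.62, was well above background. Without D12 the limma difference between Group D and Group M was -1.61 ± 0.50 (adjusted p = 0.125). For each of D9 to D11 the lowest signal well above background on its array was taken, or the rat's own Ccne2 value where that was higher. The mean of Group M was at least 2.69-fold above the mean of these values. That bound concerns the means alone and takes no account of the spread between rats.

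Of the 2 transcription factors in the list, E2f1, which switches on replication genes, had the smaller differences. It measured -2.58, -2.17, -2.60 and -2.76 in Group C, -1.47, -3.02, -2.26 and -1.70 in Group M, -2.95, -2.48 and -2.78 in D9 to D11 and -1.64 in D12. M5 and M8 lay above all controls, M7 lay inside their range and M6 below it, and the differences of 0.41 ± 0.30 and -0.62 ± 0.32 missed the unadjusted p. Foxm1, which drives mitotic genes, differed by 0.71 ± 0.32 and -1.05 ± 0.34, with adjusted p of 0.216 and 0.135.

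The 8 mitotic kinases and checkpoint genes had medians of 1.24 and -1.38, with 6 of them at the unadjusted p in Group M against Group C and 8 in Group D against Group M. Plk1, which starts the mitotic programme, measured -1.78, -1.25, -2.26 and -0.84 in Group C, 0.94, -1.40, -0.20 and 0.98 in Group M, -1.19, -1.43 and -1.55 in D9 to D11 and 0.41 in D12. Group M was 3.06-fold above Group C (adjusted p = 0.123). Ttk, the kinase that sets the spindle checkpoint, was 2.51-fold higher in Group M than in Group C (adjusted p = 0.121). Its 4 Group M rats, from -3.40 in M6 to -1.61, all lay above D9 to D11, with D12 at -2.27. The margin of M6 was very small, since D10 was at -3.42. Aurkb and Bub1b had differences of 1.54 and 1.64 between Group M and Group C, and Aurka, Mad2l1 and Melk of 0.75, 0.92 and 1.16. Bub1 gave 1.14 on 1 probe and 0.12 on the other, which stayed at background on all 12 arrays.

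Ube2c and Cdc20, the ubiquitin-conjugating enzyme and the activator of the anaphase-promoting complex, both reached the unadjusted p in both comparisons. Ube2c measured -3.37, -2.93, -3.72 and -2.31 in Group C, -0.65, -3.01, -1.27 and -0.76 in Group M, -2.33, -2.87 and -3.23 in D9 to D11 and -1.34 in D12. It was 3.17-fold higher in Group M than in Group C (adjusted p = 0.119) and 2.62-fold lower in Group D than in Group M (adjusted p = 0.183). Cdc20 differed by 0.91 ± 0.28 and -0.69 ± 0.30.

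Among the 6 genes of chromosomes and kinetochores, Top2a, the topoisomerase that untangles sister chromatids, measured -3.24, -2.49, -3.18 and -1.67 in Group C, -0.19, -2.88, -0.97 and -0.23 in Group M, -2.49, -2.66 and -3.03 in D9 to D11 and -0.80 in D12. It differed by 1.58 ± 0.57 (adjusted p = 0.151) and -1.66 ± 0.62 (adjusted p = 0.164), and the probe printed above gave 1.88 and -1.60. Birc5, or survivin, was 3.29-fold higher in Group M than in Group C (adjusted p = 0.134). Cdca8, or borealin, its partner in the chromosomal passenger complex, measured from -6.05 to -5.42 in Group C, -4.22, -5.58, -4.97 and -4.50 in Group M, -6.12, -6.25 and -5.54 in D9 to D11 and -4.66 in D12, and it passed the criterion of the methods in Group D against Group M (2.22-fold lower, adjusted p = 0.103). The kinetochore proteins Ndc80 and Nuf2 differed by 1.10 and 1.26 between Group M and Group C. Cenpf, at 0.78, did not reach the unadjusted p in either comparison.

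The 8 spindle and cytokinesis genes had medians of 1.06 and -1.11. Tpx2, which activates Aurora A on the spindle, measured -4.89, -4.18, -4.91 and -3.74 in Group C, -2.44, -4.69, -3.21 and -2.57 in Group M, -4.88, -4.63 and -5.05 in D9 to D11 and -3.12 in D12, and it was 3.09-fold lower in Group D than in Group M (adjusted p = 0.124). The motors Kif11 and Kif20a and the midzone proteins Prc1 and Racgap1 differed by 1.03 to 1.11 between Group M and Group C. Nusap1 gave 1.10 and narrowly missed the unadjusted p, and Kif23, a motor of cytokinesis, gave 0.41. For Kif23 the control C4, at -1.23, lay above every rat of Group M, of which M5 was the highest at -1.41, and above D12 at -2.14.

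Kif2c, a kinesin that takes microtubules apart at the kinetochore, went the other way. It measured -2.08, -2.75, -1.78 and -1.84 in Group C, -2.03, -2.04, -3.30 and -2.48 in Group M, -2.09, -2.01 and -2.16 in D9 to D11 and -2.97 in D12. M7, C2 and D12 were its low rats, and M6 was among the higher ones. Its difference of -0.35 ± 0.30 between Group M and Group C was within the spread (adjusted p = 0.519), and its other probe, which overlaps the one printed above, gave -0.42. Kif2c thus departed from its list on both probes, although they are not independent readings.

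Paired probes mostly gave close values. Over the 12 genes with 2 probes, the gap between the 2 values for Group M minus Group C was at most 0.303 in 10, the exceptions being Bub1 and Mcm4, whose second probes were dim.

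The proliferation marker Mki67 (Ki-67) is on this array only under the older name RGD1566252, recognised from the description of 3 probes, and by the rule it is not counted in the list. Its brightest probe measured -1.08, -0.70, -1.28 and -0.07 in Group C, 1.34, -0.81, 0.55 and 1.22 in Group M, -0.68, -0.72 and -0.95 in D9 to D11 and 0.76 in D12. The same 4 rats were high as for the list. The 3 probes differed by 1.36 to 1.45 between Group M and Group C, with adjusted p from 0.129 to 0.135, and by -1.49 to -1.36 between Group D and Group M, with adjusted p from 0.141 to 0.161.

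Inside Group C, where no rat was separated, the genes parted by role. C2 was the highest control in 11 of the 14 replication genes and C4 in 3. For the kinases and checkpoint genes C4 was the highest control in 6 of 8, for cyclins and Cdk1 in 5 of 6, for chromosomes and kinetochores in 6 of 6 and for the spindle in 7 of 8. Mcm3 was 1.76 above the Group C mean in C2, while Cdk1 was highest in C4. These counts describe 4 rats and were not tested.

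Other genes of the cycle, from lists wider than the 46, were read in the same way. Of all probes, 10% were higher and 12.6% lower in Group M than in Group C at the unadjusted p. Between Group D and Group M, 11.3% were higher and 10.3% lower in Group D. Of 40 other replication genes, 7 were higher and 1 lower in Group M than in Group C at the unadjusted p, and 0 were higher and 27 lower in Group D than in Group M, with medians of 0.36 and -0.65. The flap nuclease Fen1 differed by 1.01 and -1.20. The origin subunit Orc1l, Cdc45l, Mcm10 and the polymerase subunit Pole were lower in Group D than in Group M by 2.58, 1.42, 1.64 and 1.65, each past the criterion of the methods. Of 56 other mitosis genes, 34 were higher and 0 lower in Group M, and 1 was higher and 33 lower in Group D than in Group M, with medians of 0.86 and -0.99. Cenpt, a kinetochore protein, differed by 2.27 ± 0.65 and -2.62 ± 0.71, Cenpa, the centromeric histone, by 1.69 and -1.68, and the motor Kif22 by 1.23 and -1.26. The fits here leave D12 out. No gene of either list passed the adjusted limma p in either comparison, against 0.204% and 0.171% of all probes. The mean of the replication list was -2.01, -3.44, -2.54 and -2.18 in M5 to M8, -3.55 to -3.32 in D9 to D11 and -2.24 in D12. For the mitosis list it was -2.19, -3.88, -2.81 and -2.29 in M5 to M8, -3.86 to -3.69 in D9 to D11 and -2.70 in D12.

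Regulators were mixed. Of 11 E2F, Myb and DREAM factors, 5 were higher and 1 lower in Group M than in Group C at the unadjusted p, with a median of 0.03. Mybl2 (B-Myb) differed by 1.24 ± 0.41 and -1.90 ± 0.44, E2f8 by 1.07 and -1.21, and Myc by 1.38 ± 0.29 and -1.11 ± 0.32, while Tfdp2, a dimer partner of E2F, gave -1.09 ± 0.28 between Group M and Group C. With D12 in the fit the differences between Group D and Group M were smaller, at -1.35 for Mybl2, -1.02 for E2f8 and -0.61 ± 0.47 for Myc. D12, at 1.54, was the highest of the 12 rats for Myc. Of 11 G1 cyclins and their kinases, 2 were higher and 0 lower, with Cdk6 at 1.03 and Ccnd1, cyclin D1, at -0.32. Of 19 brakes of the cycle, 3 were higher and 3 lower, shares near the 10% and 12.6% of all probes. Ccng1, cyclin G1, was higher by 2.45 ± 0.39 in Group M than in Group C (adjusted p = 0.047, limma), at -0.03 to 0.08 in all 4 Group M rats and -3.16 to -0.96 in Group C. That call was narrow: leaving out any single rat other than C4 or M6 took the adjusted p above the threshold, to 0.066 without C2 and up to 0.155 without C1, while the difference stayed between 2.21 and 2.94. M6 was high with its group in Ccng1, and D9 to D12, at -0.33 to 0.00, differed from Group M by little (-0.22 ± 0.42 without D12, adjusted p = 0.812). Gadd45g, induced by stress, gave 1.34 and -1.19, and Cdkn1c (p57) gave -0.76 and 0.68. With D12 in the fit the differences between Group D and Group M were -0.70 ± 0.47 for Gadd45g and 0.55 for Cdkn1c. D12, at 1.88, was the highest of the 12 rats for Gadd45g.

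Markers of other cells were read in the same rats. Of 7 genes listed for germinal centre B cells, 5 were higher in Group M than in Group C at the unadjusted p and 6 lower in Group D than in Group M. The shares of all probes were 10% and 10.3%. In this list 1 of the 7, Mki67ip, is a nucleolar gene rather than a defining marker. The mean of this list was -3.92 to -3.50 in Group C, -2.16, -3.81, -2.53 and -2.36 in M5 to M8, -4.18 to -4.01 in D9 to D11 and -2.61 in D12. All 7 genes of the list were well above background in M5, M7, M8 and D12 and 5 of the 7 in the other 8 rats. The germinal centre markers were thus high in the same 4 rats as the cell cycle genes. Their part in the result was not tested.

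The list of 6 general B cell markers behaved in part differently. Its mean was -6.12, -1.22, -5.65 and -5.13 in C1 to C4, -0.65, -5.93, -1.47 and -1.23 in Group M, -6.98, -4.31 and -4.92 in D9 to D11 and -0.06 in D12, so the control C2 was level with the high rats here. The median differences of these genes were large, at 2.25 between Group M and Group C and -3.04 between Group D and Group M. The spread between rats was large too, with an SD of the mean of 2.24 in Group C, 2.44 in Group M and 1.40 in D9 to D11. By count, 0 of the 6 were past the unadjusted p in Group M against Group C and 2 were lower in Group D than in Group M. For the T cell list below, the median differences were 0.91 and -1.32. The mean of 8 T cell markers was -4.31 to -1.76 in Group C, with C2 the highest, -4.62 to -1.86 in Group M, with M6 the lowest, -4.39 to -3.70 in D9 to D11 and -0.94 in D12, with 0 and 1 past the unadjusted p. C2 was the control in which replication genes were highest, and the part of lymphoid cells in that was not tested.

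The mean of the neutrophil markers was high in the same 4 rats too, but D12 did not share the detection of single genes. Well above background were 7 of the 9 genes in M5, M7 and M8. In D12 they were 4 of the 9, as in every other rat. At the unadjusted p, 4 of the 9 neutrophil markers were higher in Group M than in Group C and 4 lower in Group D than in Group M. The shares of all probes were 10% and 10.3%. Not above background on any array were 2 of the 9, and the median differences were 1.74 and -1.42. Their mean was -7.02 to -6.22 in Group C, -5.59, -6.67, -4.46 and -5.58 in M5 to M8, -6.98 to -6.75 in D9 to D11 and -5.83 in D12, so M5, M7, M8 and D12 lay above every control and M6 did not. Of 9 macrophage markers, 4 were higher in Group M and 7 lower in Group D than in Group M at the unadjusted p, against the same 10% and 10.3% of all probes. Their means were -0.12 to 0.33 in Group C, 0.04 to 0.48 in Group M, -0.15 to -0.08 in D9 to D11 and 0.32 in D12. Epithelial markers, 9 in all, had means of 4.42 to 4.81 in Group C, 4.47 to 4.98 in Group M, 4.58 to 4.88 in D9 to D11 and 4.35 in D12. The mean of 10 crypt base and stem cell genes lay between -3.42 and -2.93 in all 12 rats, with Olfm4 and Msi1 not above background on any array. Single genes of that list varied more. At the unadjusted p, 2 of the 10 were higher and 1 lower in Group M than in Group C, against 10% and 12.6% of all probes. In Group D against Group M, 2 were higher and 2 lower, against 11.3% and 10.3%. Ascl2 (0.99 ± 0.27) and Sox9 (0.43 ± 0.10) were higher in Group D than in Group M, by 0.64 and 0.34 with D12 in the fit. Sox9 was lower in Group M than in Group C (-0.28 ± 0.09). Cd44, a surface receptor that lymphoid cells carry as well, differed by 1.09 ± 0.29 between Group M and Group C and by -1.36 ± 0.32 between Group D and Group M (adjusted p = 0.107 and 0.085, limma). With D12 in the fit the latter was -1.07. Cd44 met the criterion of the methods both times. The 9 genes of differentiated colonocytes had their lowest means in D12 (-0.27), M7 (-0.17) and C2 (0.03), and the highest of the other rats was 1.41. Of the 9, 5 were higher and 1 lower in Group D than in Group M at the unadjusted p, against 11.3% and 10.3% of all probes. The median was 1.01, and the carbonic anhydrases Car1 (1.77 ± 0.47) and Car4 (1.41 ± 0.35) passed the criterion of the methods upward. The part of these cells in the result was not tested.

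**Figure D4:**
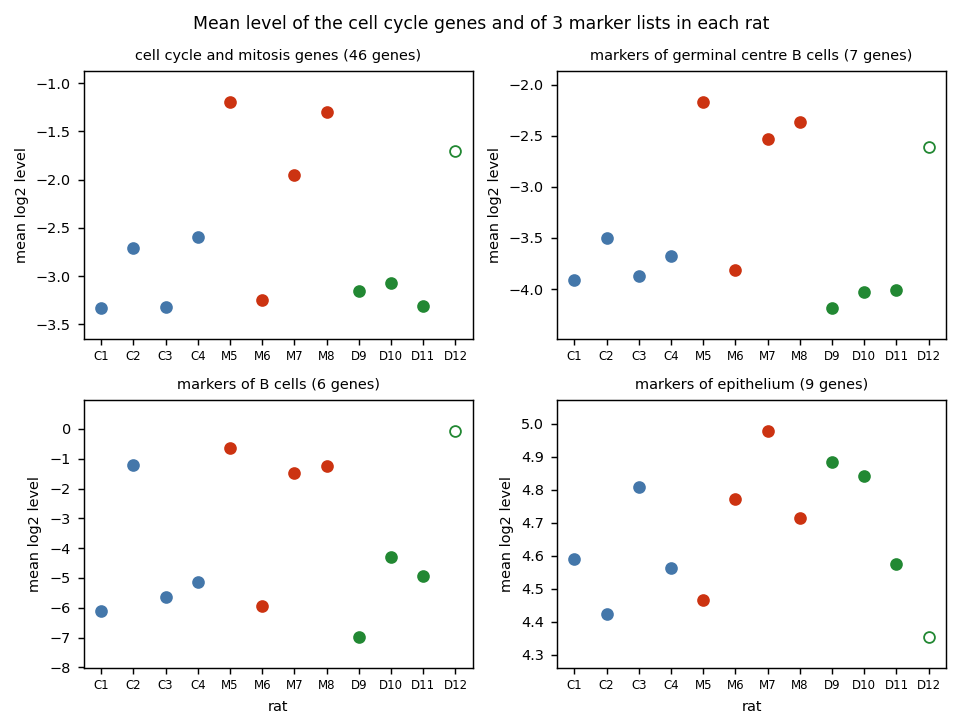
Mean log2 level, relative to the 75th percentile of the array, of the 46 cell cycle genes and of marker lists for germinal centre B cells, B cells and epithelium in each rat (the scales of the axes differ, and D12 is the open circle). M5, M7, M8 and D12 are the 4 high rats in the former pair of panels, C2 joins them for B cells, and the epithelial means stay between 4.35 and 4.98.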

How the data were processed

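The files are Agilent Feature Extraction output for 12 one-colour arrays, 1 rat each, with 62976 spots (4259 of them controls) and 30367 probes. The deposited intensity (the processed signal) was already background-subtracted by the scanner software, per the file headers. A separate table deposited by the authors holds log2 values of the same arrays, normalised between arrays, with a median of 7.283 to 7.284 in every column; each of its 12 columns followed its own array most closely, and it served as an alternative. The 75th percentile of the signals ran from 1434 to 1953. Precision is limited by the number of arrays, and each p-value sets a difference between groups against the spread between rats within groups.

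Spots marked as outliers (277 to 521 an array) were dropped, log2 signals were set relative to the 75th percentile of each array, and spots of 1 probe were averaged. Groups came from the labels. The 3 groups were fitted over 11 arrays with limma 3.58.1 in R 4.3.3, with Benjamini-Hochberg adjustment over all probes. The criterion of the methods (analysis of variance and Tukey's test at 0.05, 2-fold) was computed on the same values. Both were tested on simulated data. D12 was left out of the tests because the methods name 11 arrays; the reason is not given in the sources used here.

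The members and gene lists were chosen with earlier results of these data known. Named genes were 6 marker members, members past either threshold, and the 2 largest differences each way in each comparison. Other genes of the list are given briefly with values. Pathway genes were named where they passed a threshold or had the largest differences; Ccnd1, Olfm4, Msi1, Cd44, Car1, Car4 and Mki67ip were named after their values were seen, and some single-gene results are not reported here. Alternatives changed the arrays, background correction, normalisation, spot and probe filters, weights, replicate block and samples, and their effect is given at the end.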

Additional observations from a re-analysis of the deposited data

Results flagged for a closer look

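Single rats stood far from the other 3 of their group by Dixon's ratio, which chance passes in about 1 of 20 groups. The ratio was computed for 29 measures, single genes and means of lists, so some of the passes could be due to chance. In Group M the rat that stood apart was M6, for Pcna at 0.26 and for Gmnn at -3.49. In Group D it was D12, for Mcm2 at -0.78, Rrm2 at 2.15, Ccna2 at -0.0696, Mcm6 at -1.18 and, in the low direction, Kif2c at -2.97. D12 also stood apart in the mean of all 46 genes (-1.70), of the replication genes (-0.98), of the mitotic kinases and checkpoint genes (-1.88) and of the chromosome and kinetochore genes (-2.27). These measures share genes, so the results for D12 are not independent of each other.

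D12, which is outside the tests, was higher than every Group C rat in 41 of the 46 genes.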

How the results depend on the processing

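The direction of the median difference held under every alternative run for Group M against Group C and for Group D against Group M. Array weights raised the adjusted limma counts from 0 to 52 and 53 (over the whole array, from 62 and 52 to 8151 and 6576 of 30367 probes) and, for Group M against Group C, the unadjusted count to 54 and the median to 1.73. Normexp background correction gave 1 adjusted call in each of these comparisons and 4 probes past the criterion of the methods in Group D against Group M. Adjusting the criterion for multiple tests left 0 probes in both. With all 12 arrays the criterion was passed by 1 probe (Group M against Group C) and 0 (Group D against Group M), and the unadjusted count of the latter was 4. For Group D against Group C the unadjusted count was 1 with only those 2 groups in the fit.

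Leaving out 1 rat at a time gave unadjusted counts of 15 to 51 for Group M against Group C, 21 to 53 for Group D against Group M and 0 to 1 for Group D against Group C. Adjusted limma counts ran from 0 to 47 and 0 to 51, and the criterion of the methods from 1 to 47 and 0 to 48, for the former 2 comparisons, with the highest of each without M6. Tyms changed sign: it gave 0.00259 for Group D against Group M when arrays were centred on their medians, and, over the left-out rats, -0.0882 to 0.198 for Group M against Group C and -0.219 to 0.0668 for Group D against Group M. Ccng1, called in Group M against Group C, lost the adjusted call with all 12 arrays (0.072), quantile normalisation (0.059), the value table of the authors (0.067), the replicate block (0.148) and only the 2 compared groups (0.126), and its difference between Group D and Group M was 0.0368 with the replicate block. Other named genes kept their sign.

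Rats that shared a replicate number did not deviate together (correlations of -0.56 to 0.13 over all probes), so the numbers do not pair them. With the replicate block the unadjusted count was 25 for Group D against Group M and 33 for Group M against Group C, with no adjusted call. The number of rats, 3 or 4 a group, limits what can be called.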
